A study of Mus musculus with 9 samples.

Results

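Type I interferon-stimulated genes are the genes that a cell transcribes when its interferon receptor is engaged. The 39 genes described here were identified by gene symbol from a list of such genes, drawn up when earlier results of these data were known, and all 39 were found among the 54532 genes of the FPKM table (fragments scaled to gene length and to library depth, so that levels can be compared between genes). Of these, 37 also stood in the table of raw counts, which held 9877 genes. Mx2 and Ifi44 were tested instead on whole counts recovered from the FPKM values. All 39 genes passed the filter on low counts, which removed none of the 9877 genes of the count table. The RNA came from monocytic myeloid-derived suppressor cells, or M-MDSCs, which resemble monocytes and restrain T cells, sorted from tumours of mice that carried MC38, a mouse colon carcinoma line. There were 9 poly-A libraries in 3 groups of 3: WT mice, LILRB4+/+ mice (LILRB4 libraries) and LILRB4+/+ SCG2-/- mice (SCG2 knockout libraries, or the knockout). All 9 thus came from tumour-bearing mice, and the SCG2 knockout libraries carry the LILRB4 allele too. The labels say neither what the LILRB4 allele is, nor how many mice a library holds, nor the gate used for sorting.

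Interferon alpha and beta bind the receptor IFNAR, whose kinases JAK1 and TYK2 phosphorylate STAT proteins such as STAT2. With IRF9 these form a complex that binds a promoter element, the interferon-stimulated response element (ISRE), next to many interferon-stimulated genes. Their products sense viral nucleic acid, degrade or block foreign RNA, tag proteins with ISG15 or recruit lymphocytes, and IRF7 feeds back to make more interferon. In tumour myeloid cells the same programme marks exposure to interferon made by neighbouring cells or by the cells themselves.

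The promoter element was read from RefSeq promoter windows (build GRCm38.p6), which held 29 of the 39 genes, for the 250 bases upstream of each transcription start. The ISRE was searched as TTTC, any 2 bases and TTTC again, or GAAA, any 2 bases and GAAA for the other strand, and matches that overlap were kept. At least 1 match was present in 11 of the 29 genes (37.9%): Bst2, Cxcl10, Ifit1, Ifit3, Isg15, Oas1a, Oas1g, Oas3, Rsad2, Stat2 and Trim30a. Counted the same way, 936 of all 27025 genes of the table held a match (3.46%), as did 2.97% of its 32817 windows. The 6 stretches printed here, 5′ to 3′ on the gene's strand with the matches in capitals, belong to genes that stood on opposite sides of the LILRB4 against WT comparison: Ifit1, Isg15 and Rsad2 were on its higher side, Ifit3 and Oas3 on its lower side, and Cxcl10 stood between.
Ifit1, chr19:34640765-34640833, plus strand: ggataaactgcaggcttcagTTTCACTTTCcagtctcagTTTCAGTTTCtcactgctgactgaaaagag
Ifit3, chr19:34583353-34583436, plus strand: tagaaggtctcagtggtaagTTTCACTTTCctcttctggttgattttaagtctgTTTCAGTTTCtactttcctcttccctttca
Isg15, chr4:156200855-156200916, minus strand: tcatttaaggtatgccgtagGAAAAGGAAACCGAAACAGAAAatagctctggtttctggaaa
Rsad2, chr12:26456543-26456592, minus strand: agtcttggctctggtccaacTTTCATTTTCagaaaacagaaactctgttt
Oas3, chr5:120777705-120777754, minus strand: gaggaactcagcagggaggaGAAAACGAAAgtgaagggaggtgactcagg
Cxcl10, chr5:92349073-92349122, minus strand: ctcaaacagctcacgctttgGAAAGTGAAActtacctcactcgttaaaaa
Ifit1 and Ifit3, neighbours on chromosome 19, held the same 2 motif versions in the same order, beginning 104 and 85 bases upstream of the start in Ifit1 and 156 and 122 bases upstream in Ifit3. Isg15 held 3 overlapping matches. The gamma-activated site, searched as TTCNNNGAA, occurred in 4 of the 29 genes (Bst2, Eif2ak2, Ifit2 and Oas1a) and in 8.13% of all genes. An NF-kB motif (GGG, any 2 bases and TTTCC, on both strands) matched none of the 29, against 1.65% of all genes. A match is a description of letters and not evidence that a factor was bound.

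Deposited counts summed to 14501163 to 27219202 per library. The monocytic markers Cd14, Itgam, Ly6c2 and Csf1r were present in every library, and Ly6g, which defines granulocytic cells, did not exceed 4 counts. The 10 listed neutrophil markers, Ly6g among them, summed to 81.6, 109 and 83.5 CPM (counts scaled to library depth) in WT. Their sums were 101, 220 and 116 CPM in LILRB4 and 75.9, 70.1 and 65.6 in the knockout, so LILRB4 replicate 2 was the highest. Markers of other cells were also present: the 14 T and NK cell markers summed to 936, 214 and 342 CPM in the 3 WT libraries in order, 1672, 215 and 1166 in LILRB4 and 880, 1647 and 1705 in the knockout. LILRB4 replicate 2 thus resembled WT replicates 2 and 3 in these markers and stood apart from the other LILRB4 libraries, so results that rest on it are given with and without it. Scg2 had at most 1 count in any library, which leaves the knockout label without a check in these data. Lilrb4a, a mouse counterpart of LILRB4, stood at 138, 47.7 and 74.0 FPKM in WT, 274, 154 and 160 in LILRB4 and 131, 146 and 157 in the knockout.

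The 39 genes covered a wide range of levels in these cells. Ifitm3, a membrane protein that blocks viral fusion, had the highest mean over the 9 libraries at 412 FPKM and made up 34.1% of their summed FPKM. Ifi27l2a followed at 141, the tetherin gene Bst2 at 133, the chemokine gene Cxcl10 at 97.9 and Isg15 at 78.0 FPKM. These were the 5 genes above 50 FPKM, whereas 22 genes lay below 10 FPKM, down to Herc6 at 1.04 and Ifi44 at 0.720. Ranges over the 9 libraries overlapped for every pair of neighbours in this order except Mx2 and Herc6, so most neighbouring ranks were not separated by more than their spread.

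No single direction held for the whole set in any comparison, and no gene passed the main test in any of the 3. This test was edgeR's quasi-likelihood test with Benjamini-Hochberg adjustment over all genes of the table, at an adjusted p of 0.05. Of these 9877 genes, 9876 had 100 or more recovered counts in both LILRB4 replicates 1 and 3, as did no other protein-coding gene. Shares of all genes below are thus of genes selected by level in 2 LILRB4 libraries, except where recovered counts or limma are named. Log2 fold changes below come from this fit, with their standard error (SE). In LILRB4 against WT 0 of the 39 genes were called in either direction, where 1.73% of all 9877 genes were called higher and 0.516% lower. Those are 171 and 51 genes, which became 136 and 128 with upper-quartile scaling and 0 and 0 without WT replicate 2 or without WT replicate 3. In this comparison 11 of the 39 genes had a positive log2 fold change and 28 a negative one, with a median of -0.32, while the median over all genes tested was -0.02. At an unadjusted p below 0.05 stood 4 genes on the higher side and 9 on the lower, beside 11.3% of all genes in each direction. Leaving out 1 library moved the 9 to 1 (without LILRB4 replicate 3), 2 (WT replicate 2), 5 (SCG2 knockout replicate 3) or 15 (WT replicate 1), and otherwise to between 6 and 10. Calls differed between tools. Of 13149 genes tested, limma on log2(FPKM + 1) called 67 higher and 9 lower, none of them a member. DESeq2 called Ifih1, Oasl1 and Rsad2 higher, beside 6.2% of all genes, and none lower, beside 3.16%. Without LILRB4 replicate 2 edgeR called 4 members higher (Oasl1, Ifih1, Rsad2 and Ifit1), beside 5.48% of all genes, and none lower, beside 1.5%.

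In SCG2 knockout against LILRB4 0 of the 39 genes and 0% of all genes were called by edgeR in either direction. Negative values nevertheless prevailed, with 33 of 39 genes below 0 and a median of -0.23 against 0.03 over all genes tested. At an unadjusted p below 0.05 there were 0 genes on the higher side and 9 on the lower, beside 4.88% and 6.18% of all genes. The 9 became 5 without LILRB4 replicate 2 and 5 without SCG2 knockout replicate 3. DESeq2 called Ifih1 and Rsad2 lower, beside 1.77% of all genes, and none higher, beside 0.121%. It gave no adjusted p here for some members, Dhx58, Oas3, Cmpk2 and Herc6 among them, so these could not be called. The shares count genes without an adjusted p too. With limma 0 of all 13149 genes were called. In SCG2 knockout against WT edgeR again called 0 of the 39 and 0% of all genes in either direction. Here 33 of 39 were negative, the median was -0.47 against 0.00 over all genes tested, and 20 genes were lower at an unadjusted p below 0.05, beside 6.11% of all genes, with 0 higher, beside 8.47%. The 20 became 12 without SCG2 knockout replicate 3 and 13 without WT replicate 2, and lay between 14 and 20 without any other library. DESeq2 called 8 of them lower (Irf7, Dhx58, Zbp1, Oas2, Oas3, Oasl2, Ifitm3 and Ifi27l2a), beside 0.233% of all genes, and none higher, beside 0.699%. With limma again 0 of all 13149 genes were called. The 3 comparisons share libraries in pairs, so their values are given side by side and not as separate support for each other.

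**Figure D1:**
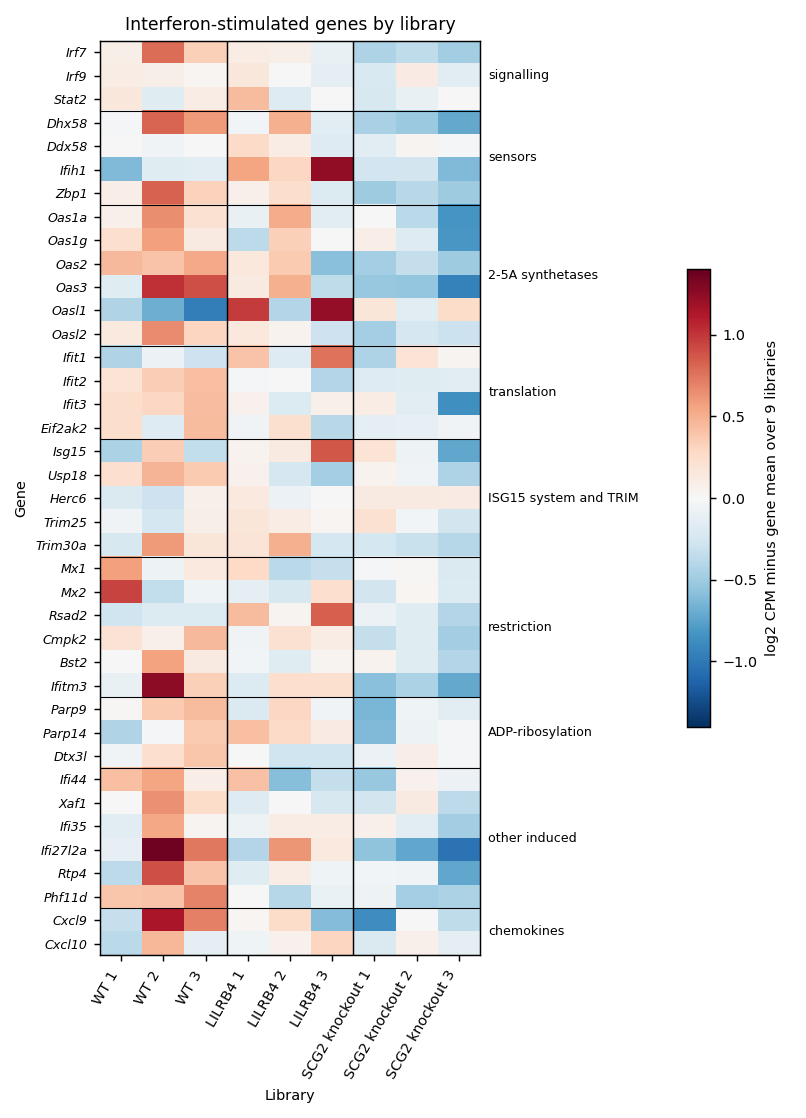
Each row is 1 of the 39 genes, grouped by role, and each column 1 library. Colour gives log2 CPM minus the gene's mean over the 9 libraries, so red cells lie above the gene's mean. WT replicates 2 and 3 have the most cells above the mean (27 and 31 of 39 genes) and SCG2 knockout replicate 3 the fewest (3 of 39), while Oasl1, Ifih1 and Rsad2 are reddest in LILRB4 replicates 1 and 3.

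Counted by groups that did not overlap, the comparisons differed in shape. LILRB4 libraries lay wholly above WT for 3 genes (Ifih1, Oasl1 and Rsad2; 7.69% of the 39) and wholly below for 5 (Oas2, Ifit2, Ifit3, Usp18 and Phf11d; 12.8%). Over all 15743 genes with recovered counts those shares were 10.5% and 12.8%, so the members' shares were near or below the background. SCG2 knockout libraries lay wholly below LILRB4 for 10 genes (25.6%, background 7.85%) and wholly above for 0 (background 7.6%). Against WT they lay wholly below for 18 genes (46.2%, background 9.85%) and wholly above for Oasl1 and Herc6 (5.13%, background 12.2%). The median deviation of the 39 genes from their own means was 0.00, 0.40 and 0.26 (log2) in the 3 WT libraries in order, 0.05, 0.10 and -0.06 in LILRB4 and -0.21, -0.15 and -0.40 in the knockout. WT replicate 1 therefore sat apart from the other WT libraries, near the LILRB4 libraries.

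Among the transcription factors, Irf7 (chromosome 7, 141262706 to 141266481), the factor that amplifies interferon production, had its lowest levels in SCG2 knockout. It stood at 20.5, 33.4 and 24.7 FPKM in WT, 21.4, 20.7 and 18.1 in LILRB4 and 14.2, 15.3 and 13.7 in the knockout. All 3 knockout libraries lay below all 6 others, whereas WT and LILRB4 overlapped. The log2 fold change was -0.41 (SE 0.17, adjusted p = 0.18) for LILRB4 against WT, -0.42 (SE 0.17, adjusted p = 0.41) for SCG2 knockout against LILRB4 and -0.83 (SE 0.17, adjusted p = 0.32) for SCG2 knockout against WT. Without WT replicate 2 the first of these was -0.19. DESeq2 gave an adjusted p of 0.00586 for SCG2 knockout against WT, and adjusted p over all alternatives ran from 0.00586 to 0.80. Stat2 and Irf9, which encode subunits of the ISRE-binding complex, showed no such separation. Irf9 stood at 10.9, 10.8 and 10.5 FPKM in WT, 11.7, 10.2 and 9.36 in LILRB4 and 8.68, 11.1 and 9.10 in the knockout. Stat2 stood at 16.9, 13.4 and 16.4 FPKM in WT, 21.1, 13.4 and 15.1 in LILRB4 and 12.8, 14.1 and 14.9 in the knockout. The groups of both genes overlapped in every comparison.

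The RNA and DNA sensors did not move as a block. Ifih1 (MDA5, a sensor of long double-stranded RNA; chromosome 2, 62595798 to 62646255) stood at 3.67, 5.03 and 5.15 FPKM in WT, 8.48, 6.95 and 13.5 in LILRB4 and 4.64, 4.76 and 3.66 in the knockout. All LILRB4 libraries lay above all others, and WT and SCG2 knockout overlapped. The log2 fold change was 1.04 (SE 0.24, adjusted p = 0.052) for LILRB4 against WT and -1.10 (SE 0.24, adjusted p = 0.24) for SCG2 knockout against LILRB4. Ifih1 lay at the edge of the threshold: without LILRB4 replicate 2 its adjusted p was 0.0222 and its log2 fold change over WT 1.24, with DESeq2 size factors in the edgeR fit it was 0.0484, and over all 21 alternatives it ran from 0.00209 to 0.23. DESeq2 gave 0.00382 for SCG2 knockout against LILRB4, within a range of 0.00382 to 0.77 over the alternatives. SCG2 knockout against WT gave -0.05 (SE 0.24).

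Dhx58 (LGP2, which tunes the RNA sensors) and Zbp1 (a sensor of left-handed nucleic acid that can trigger necroptosis) had another order. Dhx58 stood at 4.57, 8.21 and 7.11 FPKM in WT, 4.67, 6.63 and 4.20 in LILRB4 and 3.36, 3.27 and 2.81 in the knockout. Zbp1 stood at 12.4, 20.8 and 14.7 FPKM in WT, 12.6, 14 and 10.3 in LILRB4 and 8.18, 8.98 and 8.22 in the knockout. For both genes the 3 knockout libraries were the lowest of the 9 and WT replicate 2 was the highest, while WT replicate 1 lay inside the LILRB4 range. SCG2 knockout against WT gave log2 fold changes of -1.04 (SE 0.23) for Dhx58 and -0.89 (SE 0.19) for Zbp1, each at an edgeR adjusted p of 0.32 and at DESeq2 adjusted p of 0.0175 and 0.00865. Ddx58 (RIG-I), the third RNA sensor, lay between 4.09 and 5.74 FPKM throughout, with group means of 4.57 ± 0.09, 4.94 ± 0.82 and 4.49 ± 0.34 (SD, n = 3) in WT, LILRB4 and SCG2 knockout.

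**Figure D2:**
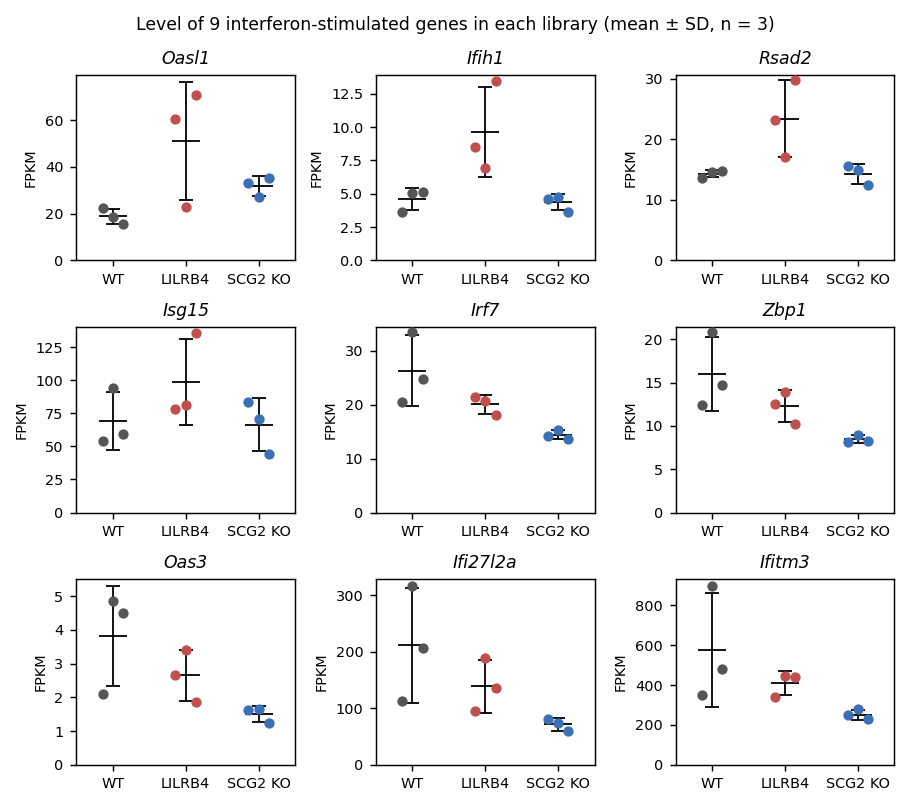
FPKM of 9 of the genes, 1 point per library, with the mean and SD of the 3 libraries of each group. Oasl1, Ifih1, Rsad2 and Isg15 have their highest library in LILRB4, with WT replicate 2 second for Isg15. Irf7, Zbp1, Oas3, Ifi27l2a and Ifitm3 have their highest library in WT and their 3 lowest in SCG2 knockout.

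The oligoadenylate synthetase family split within itself. These enzymes make the messenger that activates RNase L, and Oasl1 is a relative without that activity that is known to restrain translation of Irf7. Oasl1 (chromosome 5, 114923240 to 114937915) stood at 22.2, 18.6 and 15.5 FPKM in WT, 60.3, 22.7 and 70.6 in LILRB4 and 33.1, 27.1 and 35.4 in the knockout. LILRB4 replicates 1 and 3 were the highest of the 9 libraries, whereas LILRB4 replicate 2 was just above the highest WT library and below every SCG2 knockout library. Its log2 fold change over WT of 1.42 (SE 0.37, adjusted p = 0.072) was the largest of the 39, and without LILRB4 replicate 2 it was 1.79 with an adjusted p of 0.00875. Over the alternatives that adjusted p ran from 0.00115 (DESeq2) to 0.29. SCG2 knockout gave 0.79 (SE 0.36, adjusted p = 0.35) against WT, without overlap of the groups, and -0.63 (SE 0.36, adjusted p = 0.55) against LILRB4. The latter was -1.0 without LILRB4 replicate 2 and -0.34 without LILRB4 replicate 3.

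The other 5 members of the family had negative log2 fold changes in all 3 comparisons. Oas3, the largest of the synthetases, stood at 2.11, 4.85 and 4.50 FPKM in WT, 2.67, 3.40 and 1.88 in LILRB4 and 1.63, 1.65 and 1.23 in the knockout, so the knockout libraries were again the 3 lowest. Oas2 stood at 8.16, 7.90 and 8.69 FPKM in WT, 6.78, 7.71 and 3.99 in LILRB4 and 4.24, 4.75 and 4.19 in the knockout. LILRB4 replicate 3 lay at the knockout level of Oas2, and LILRB4 replicate 2 just under the lowest WT library. Log2 fold changes of SCG2 knockout against WT were -1.31 (SE 0.30) for Oas3, -0.88 (SE 0.21) for Oas2, -0.70 (SE 0.17) for Oasl2 and -0.68 (SE 0.24) for Oas1a, all at an edgeR adjusted p of 0.32. DESeq2 gave adjusted p of 0.0125, 0.0304 and 0.0379 for Oas3, Oas2 and Oasl2. Oas1a and Oas1g are near copies 8642 bases apart, so reads may be split between them, and their values are uncertain to that extent. Oas1a stood at 21.3, 32.2 and 23.8 FPKM in WT, 19.5, 29.3 and 18.5 in LILRB4 and 20.3, 15.8 and 11.4 in the knockout.

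The IFIT genes, whose proteins bind foreign RNA ends and block its translation, also parted. Ifit1 stood at 3.56, 4.52 and 3.95 FPKM in WT, 6.48, 4.25 and 8.12 in LILRB4 and 3.5, 5.5 and 4.84 in the knockout. LILRB4 replicate 2 lay inside the WT range for Ifit1. The log2 fold change of LILRB4 against WT was 0.62 (SE 0.26, adjusted p = 0.19), and without that library it was 0.85 with an adjusted p of 0.0498, the lowest of a range that reached 0.45. Without LILRB4 replicate 3 the log2 fold change was 0.40. Ifit3 stood at 6.89, 7.15 and 7.91 FPKM in WT, 6.21, 5.12 and 6.15 in LILRB4 and 6.21, 5.29 and 3.18 in the knockout. Ifit2 stood at 5.59, 6.25 and 6.64 FPKM in WT, 4.97, 4.91 and 3.71 in LILRB4 and 4.28, 4.39 and 4.38 in the knockout. For Ifit2 and Ifit3 every WT library lay above the other 6, with log2 fold changes of LILRB4 against WT of -0.48 (SE 0.15, adjusted p = 0.11) and -0.36 (SE 0.23, adjusted p = 0.38). Eif2ak2 (PKR), the kinase that halts translation on double-stranded RNA, lay between 3.69 and 6.62 FPKM with overlapping groups in every comparison.

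The ISG15 system showed no common shift either. Isg15, the ubiquitin-like modifier, stood at 54.1, 94.4 and 59.0 FPKM in WT, 78.3, 81.4 and 136 in LILRB4 and 83.6, 71.0 and 44.4 in the knockout. Its groups overlapped in every comparison, and the log2 fold change of LILRB4 against WT was 0.49 (SE 0.30, adjusted p = 0.35), which became 0.19 without LILRB4 replicate 3 and 0.79 without WT replicate 2. Usp18, the protease that removes ISG15 and damps receptor signalling, stood at 3.63, 4.31 and 4.04 FPKM in WT, 3.31, 2.64 and 2.23 in LILRB4 and 3.18, 3.01 and 2.27 in the knockout. All WT libraries of Usp18 lay above the rest, with a log2 fold change of LILRB4 against WT of -0.58 (SE 0.22, adjusted p = 0.15). Herc6, the ligase that conjugates ISG15 in mice, was the other gene above WT in all SCG2 knockout libraries, at 1.11, 1.13 and 1.10 FPKM against 0.888, 0.841 and 1.09 in WT and 1.16, 0.975 and 1.03 in LILRB4. Its log2 fold change of SCG2 knockout against WT was 0.27 (SE 0.18, adjusted p = 0.48). Trim25, an activator of RIG-I, stood at 45.1, 39.5 and 49.7 FPKM in WT, 53.7, 50.4 and 47.7 in LILRB4 and 53.3, 45.8 and 38.8 in the knockout, with overlapping groups throughout. Trim30a, a restraint on inflammatory signalling, stood at 11.4 ± 3.26, 11.2 ± 2.80 and 7.81 ± 0.41 FPKM (SD, n = 3) in WT, LILRB4 and SCG2 knockout.

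Among the restriction factors Rsad2 (viperin, a radical SAM enzyme that makes a chain-terminating nucleotide; chromosome 12, 26442746 to 26456452) shared the order of Ifih1. It stood at 13.6, 14.6 and 14.7 FPKM in WT, 23.2, 17.1 and 29.8 in LILRB4 and 15.6, 14.9 and 12.4 in the knockout, and all LILRB4 libraries lay above all others. The log2 fold change was 0.68 (SE 0.20, adjusted p = 0.082) for LILRB4 against WT and -0.66 (SE 0.20, adjusted p = 0.31) for SCG2 knockout against LILRB4. Without LILRB4 replicate 2 the first became 0.88 with an adjusted p of 0.0222, within a range of 0.0180 (DESeq2) to 0.28. For SCG2 knockout against LILRB4 DESeq2 gave an adjusted p of 0.0493, within a range up to 0.82. Cmpk2, the kinase that supplies the substrate of viperin and lies beside Rsad2, stood at 3.31, 3.06 and 4.0 FPKM in WT, 2.88, 3.37 and 3.14 in LILRB4 and 2.27, 2.59 and 2.05 in the knockout. The knockout libraries of Cmpk2 were the 3 lowest, with -0.56 (SE 0.17, adjusted p = 0.32) against WT.

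Ifitm3 (chromosome 7, 141009586 to 141010770) stood at 350, 899 and 479 FPKM in WT, 339, 447 and 441 in LILRB4 and 248, 279 and 228 in the knockout. WT replicate 2 was far above every other library and the 3 knockout libraries were the lowest. Its log2 fold change of SCG2 knockout against WT was -1.16 (SE 0.28, adjusted p = 0.32; DESeq2 adjusted p = 0.00865, range over alternatives 0.00865 to 0.80), and -0.71 without WT replicate 2. Ifitm3 was the member for which the deposited tables disagreed: LILRB4 replicate 1 had 5776 counts in the count table and 3776 recovered from FPKM. With recovered counts the log2 fold change of SCG2 knockout against LILRB4 was -0.68 in place of -0.84 (SE 0.28, adjusted p = 0.34), and that of LILRB4 against WT was -0.51 in place of -0.32. Without WT replicate 2 the deposited counts gave 0.16 for LILRB4 against WT. Bst2, which tethers budding virions, stood at 130, 194 and 144 FPKM in WT, 130, 116 and 134 in LILRB4 and 134, 117 and 97.0 in the knockout, with overlap in each comparison. The GTPases Mx1 and Mx2 overlapped in every comparison as well, at 4.13 to 7.90 and 1.63 to 3.97 FPKM.

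Parp14 and Parp9, which add ADP-ribose to proteins, and Dtx3l, the partner ligase of PARP9, differed in order. Parp14 stood at 7.39, 9.85 and 12.9 FPKM in WT, 13.7, 12.1 and 10.8 in LILRB4 and 6.43, 9.56 and 9.68 in the knockout, so that only LILRB4 and SCG2 knockout were separate, at -0.45 (SE 0.21, adjusted p = 0.46). Dtx3l stood at 7.01, 8.57 and 9.58 FPKM in WT, 7.44, 6.0 and 6.02 in LILRB4 and 6.80, 7.77 and 7.09 in the knockout. LILRB4 replicates 2 and 3 were the 2 lowest of the 9, whereas LILRB4 replicate 1 lay inside the range of both other groups. Its log2 fold change was -0.40 (SE 0.15, adjusted p = 0.16) for LILRB4 against WT. The spans of Parp9 and Dtx3l overlap by 682 bases on opposite strands. The kit kept the strand, but the strand setting of the counting is not given in the sources used here, so reads in the overlap may have been shared.

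Ifi27l2a (chromosome 12, 103442167 to 103443680), a small interferon-induced membrane protein gene, had the lowest log2 fold change of the 39 in SCG2 knockout against WT. It stood at 113, 316 and 206 FPKM in WT, 94.4, 188 and 135 in LILRB4 and 81.7, 74.1 and 59.2 in the knockout. The knockout libraries were the 3 lowest, and WT and LILRB4 overlapped broadly. The log2 fold change was -1.53 (SE 0.35, adjusted p = 0.32) against WT and -0.90 (SE 0.34, adjusted p = 0.39) against LILRB4, and for the first DESeq2 gave an adjusted p of 0.00449 within a range up to 0.80. Phf11d stood at 2.71, 2.74 and 3.38 FPKM in WT, 2.12, 1.58 and 1.94 in LILRB4 and 1.95, 1.49 and 1.5 in the knockout, with every WT library above the other 6. Its log2 fold change was -0.67 (SE 0.21, adjusted p = 0.098) for LILRB4 against WT, the lowest adjusted p among the genes on the lower side, and -0.81 (SE 0.21, adjusted p = 0.32) for SCG2 knockout against WT. Ifi44, Xaf1, Ifi35 and Rtp4 had negative log2 fold changes in both comparisons with WT, none past the test. Ifi35, whose product binds other interferon-induced proteins, stood at 15.2, 24.7 and 17.6 FPKM in WT, 16.5, 18.2 and 18.2 in LILRB4 and 17.5, 15.4 and 12 in the knockout, with overlap throughout. Ifi44 stood at 0.920, 1.02 and 0.745 FPKM in WT, and in SCG2 knockout at 0.473, 0.724 and 0.646, all below WT.

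The chemokine genes Cxcl9 and Cxcl10 encode ligands of CXCR3 that draw T and NK cells, and Cxcl9 depends more on interferon gamma. Cxcl10 stood at 73.8, 133 and 88.5 FPKM in WT, 94.4, 101 and 119 in LILRB4 and 82.3, 102 and 87.0 in the knockout, with overlapping groups throughout. Cxcl9 stood at 21.3, 59.1 and 43.9 FPKM in WT, 27.9, 32.1 and 17.6 in LILRB4 and 14.5, 26.9 and 20.6 in the knockout. WT replicates 2 and 3 were the highest for Cxcl9, while WT replicate 1 lay within the range of the other groups. The log2 fold changes were -0.71 (SE 0.36, adjusted p = 0.27) for LILRB4 against WT and -0.97 (SE 0.36, adjusted p = 0.33) for SCG2 knockout against WT. Without WT replicate 2 they were -0.34 and -0.64.

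**Figure D3:**
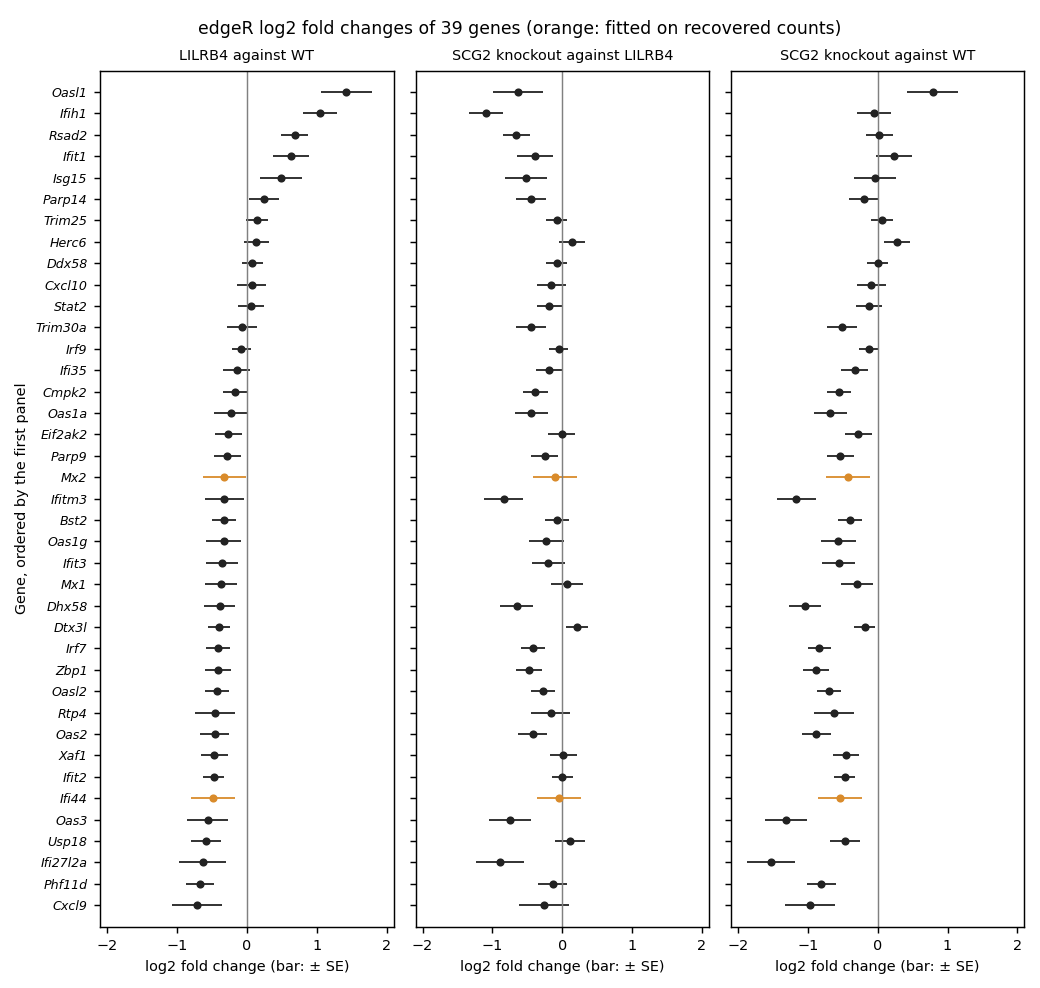
Log2 fold changes of the 39 genes with their SE in the 3 comparisons, in the order of LILRB4 against WT; Mx2 and Ifi44 (orange) were fitted on recovered counts. The 5 genes at the top of LILRB4 against WT (Oasl1, Ifih1, Rsad2, Ifit1 and Isg15) are negative in SCG2 knockout against LILRB4. So are most genes there, 33 of all 39. These comparisons share the LILRB4 libraries with opposite sign, so genes picked as high in the first tend to be negative in the next. Most genes are negative in SCG2 knockout against WT, and no gene passes an adjusted p of 0.05 in any panel.

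Some genes on opposite sides of the LILRB4 against WT comparison lie beside each other, and the ratio of 2 neighbours within a library does not depend on how libraries are scaled. The 4 pairs shown were chosen for that contrast after their values had been seen, so their ratios are a description without a test. Oasl1 and Oasl2 lie 11005 bases apart on the plus strand of chromosome 5. Their ratio per length was 2.83, 1.64 and 1.74 in WT, 7.44, 3.07 and 12 in LILRB4 and 6.51, 4.42 and 6.18 in the knockout. Every LILRB4 and every SCG2 knockout library lay above every WT library. The mean log2 ratio was 1.69 above WT in LILRB4 and 1.48 above WT in SCG2 knockout, and LILRB4 and SCG2 knockout overlapped.

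Rsad2 and Cmpk2 lie 12751 bases apart on chromosome 12 on opposite strands. Their ratio was 4.11, 4.78 and 3.67 in WT, 8.05, 5.08 and 9.49 in LILRB4 and 6.85, 5.75 and 6.06 in the knockout. Again no WT library reached either other group, with mean log2 ratios above WT by 0.81 in LILRB4 and 0.58 in SCG2 knockout. Ifit1 to Ifit3, 52139 bases apart, gave 0.52, 0.63 and 0.50 in WT, 1.04, 0.83 and 1.32 in LILRB4 and 0.56, 1.04 and 1.52 in the knockout. Here LILRB4 lay above WT without overlap, by 0.94 in mean log2 ratio, while SCG2 knockout replicate 1 fell inside the WT range. Cxcl10 to Cxcl9 gave 3.46, 2.25 and 2.02 in WT, 3.38, 3.14 and 6.77 in LILRB4 and 5.69, 3.79 and 4.21 in the knockout. For the chemokine pair SCG2 knockout lay above WT, by 0.84 in mean log2 ratio, and LILRB4 overlapped with both.

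**Figure D4:**
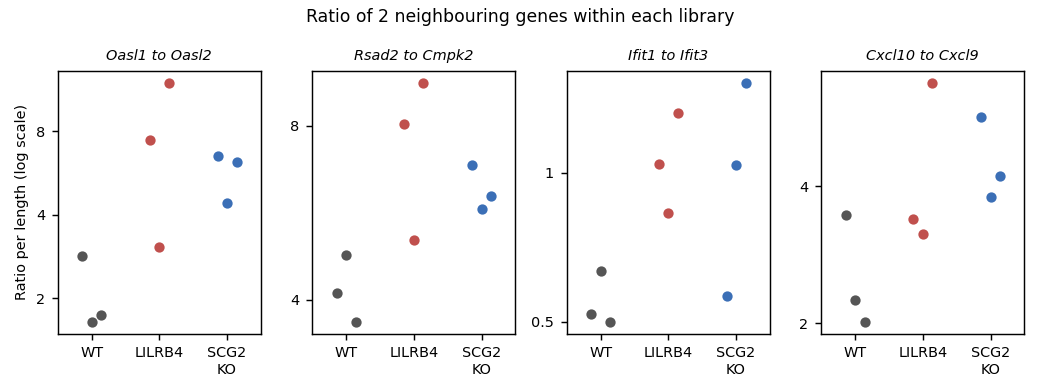
Ratio of FPKM between 2 neighbouring genes in each library, on a log axis, 1 point per library. WT points lie below all others for Oasl1 to Oasl2 (at most 2.83) and Rsad2 to Cmpk2 (at most 4.78), with LILRB4 replicate 2 the lowest LILRB4 point in both.

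Of the interferon ligands, only Ifnb1 and Ifng reached a testable level, and no interferon alpha gene listed exceeded 4 recovered counts in any library. Ifnb1, the first type I interferon made by most cells, stood at 3.85, 1.33 and 0.777 FPKM in WT, 5.03, 1.91 and 9.12 in LILRB4 and 4.52, 2.49 and 5.28 in the knockout. Ifng, made by T and NK cells, stood at 10.8, 2.22 and 3.15 FPKM in WT, 21.5, 2.93 and 20.2 in LILRB4 and 17.7, 22.7 and 21.2 in the knockout. WT replicates 2 and 3 and LILRB4 replicate 2 were the 3 lowest libraries for Ifng, and WT replicates 2 and 3 the 2 lowest for Ifnb1. Log2 fold changes of LILRB4 against WT from recovered counts were 1.41 (SE 0.65, adjusted p = 0.27) and 1.44 (SE 0.79, adjusted p = 0.36).

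The receptor genes had unlike orders of the groups. Ifnar1 stood at 30.3, 28.9 and 30.5 FPKM in WT, 53.4, 37.4 and 39.7 in LILRB4 and 32.6, 38.9 and 35.7 in the knockout, with a log2 fold change of LILRB4 against WT of 0.51 (SE 0.16, adjusted p = 0.11). Ifnar2 stood at 24.3, 31.9 and 25.3 FPKM in WT, 35.3, 33.6 and 34.0 in LILRB4 and 23.3, 23.5 and 18.8 in the knockout, where every knockout library was below every other. Of 53 listed symbols for ligands, receptors, transcription factors, sensing and inhibition, 31 were tested on deposited counts. The list holds some genes under an old and a new symbol (Mb21d1 and Cgas, Tmem173 and Sting1). In LILRB4 against WT 2 of the 31 passed the test, both higher, beside 1.73% of all genes higher and 0.516% lower. In the other comparisons none did, as for all genes (0%). Tbk1, the kinase that activates IRF3 and IRF7, rose by 0.81 on the log2 scale (SE 0.13, adjusted p = 0.0214), from 16.6, 15.2 and 16.6 FPKM in WT to 32.0, 27.2 and 27.7 in LILRB4, with SCG2 knockout at 19.1, 20.9 and 19.6. Socs3, an inhibitor of cytokine receptor signalling, had 1.13 (SE 0.25, adjusted p = 0.0467), and on recovered counts 1.14 with an adjusted p of 0.057. Without WT replicate 2 or without WT replicate 3, edgeR called 0 of all 9877 genes in this comparison, so neither Tbk1 nor Socs3 passed there. With a block for the replicate number it called 1 gene in all, so at most 1 of these 2 passed.

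Markers of other cells moved with some of these genes in part of the libraries. In bulk RNA, more cells of a type and more RNA per cell cannot be told apart. The 6 plasmacytoid dendritic cell markers other than Bst2 summed to 111, 52.6 and 78.2 CPM in WT, 183, 63.3 and 153 in LILRB4 and 118, 119 and 121 in the knockout. LILRB4 replicate 2 was thus low in T and NK cell markers, in plasmacytoid markers, in Ifng and in Oasl1, and LILRB4 replicates 1 and 3 were high in all 4. The knockout libraries had T and NK cell marker sums of 880 to 1705 CPM, with Oasl1 at 27.1 to 35.4 FPKM. WT replicate 1 went the other way, with 936 CPM of T and NK cell markers and Oasl1 at 22.2 FPKM. LILRB4 replicate 2 had 215 CPM and 22.7 FPKM. The 8 monocytic markers summed to 2696, 5846 and 4163 CPM in WT, 3902, 5953 and 4376 in LILRB4 and 4327, 3369 and 2491 in the knockout. WT replicate 2 was high and SCG2 knockout replicate 3 was low in this sum, as they were in the median of the 39 genes. Other libraries did not share that order. LILRB4 replicate 2 had the highest monocytic sum with a median of 0.10, and WT replicate 1 had a low sum, 2696 CPM, with a median of 0.00. WT replicate 3 and SCG2 knockout replicate 1 had similar sums, 4163 and 4327 CPM, with medians of 0.26 and -0.21. The 6 fibroblast markers summed to 2752, 1753 and 2242 CPM in WT and 1738, 1412 and 1910 in LILRB4. In the knockout they summed to 2584, 1946 and 2848 CPM. This sum exceeded the monocytic sum in WT replicate 1 and SCG2 knockout replicate 3. The 7 macrophage markers summed to 1192, 1634 and 1312 CPM in WT and 970, 1880 and 1048 in LILRB4. In the knockout they summed to 1344, 803 and 745 CPM. No listed marker of these cell types was at 0 in all libraries, and the part of cell composition in the differences described was not tested.

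**Figure D5:**
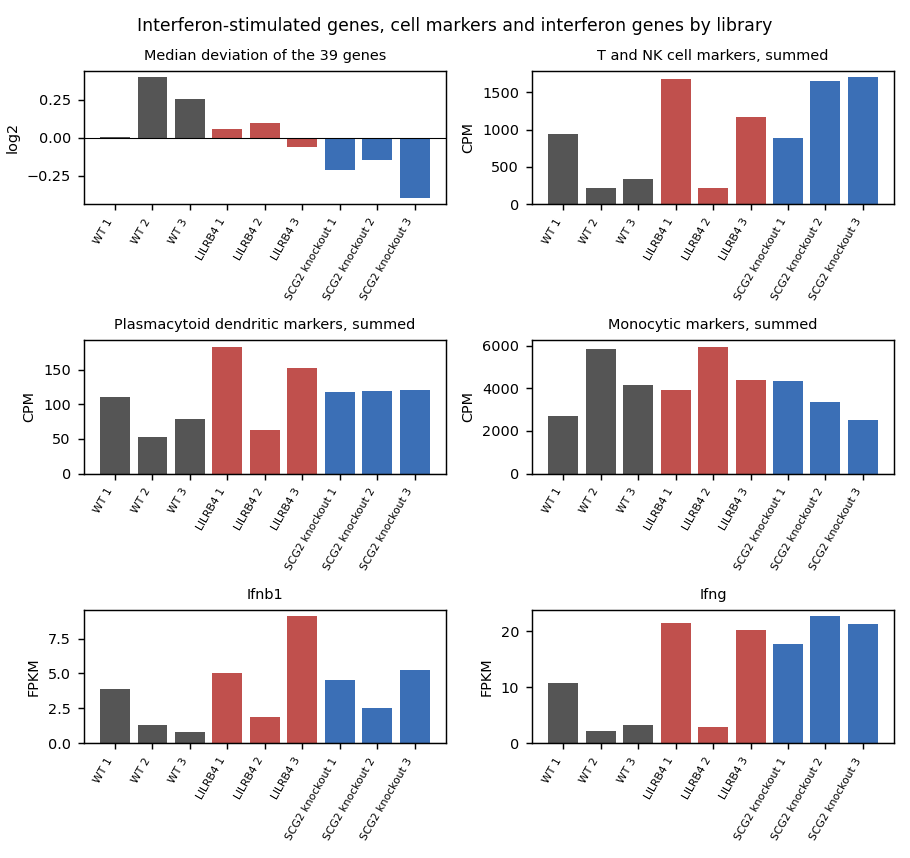
Per library, the median log2 deviation of the 39 genes from their means, the summed CPM of 3 marker lists and the FPKM of Ifnb1 and Ifng. T and NK cell markers and Ifng are lowest in WT replicates 2 and 3 and LILRB4 replicate 2, while the 3 SCG2 knockout libraries have the lowest medians of the 39 genes (-0.21, -0.15 and -0.40).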

How the data were processed

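Poly-A RNA of sorted M-MDSCs was sequenced in 9 libraries, 3 per genotype. The submitters' processing notes name the aligner HISAT2 2.0.5 and the counter featureCounts 1.5.0-p3, and the genome build, annotation and strand setting were not given in the sources used here. The authors deposited raw counts for 9877 genes and FPKM values for 54532 genes. All 9877 are protein-coding, and 9876 of them have 100 or more counts, as recovered below, in both LILRB4 replicates 1 and 3. No protein-coding gene outside the count table reached this level in both. The count table is thus selected by level in 2 libraries of 1 group, and so are the tests and shares over its genes. All 39 members had the ends of the GRCm38 annotation in these tables, and coordinates are on GRCm38. The authors' FPKM values times gene length, divided by 1 factor for each library, came out whole (tolerance 0.01) at 100% of values and are called recovered counts. The tables disagreed at 56 of 88893 values in 47 genes, of which Ifitm3 is a member. Recovered counts summed to 15004944 to 28070495 per library, so that 3 counts, the limit a count of 0 allows for counting error alone, are 0.107 to 0.200 CPM.

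Counts as deposited were fitted with edgeR 4.0.16 in R 4.3.3 (filterByExpr with a minimum count of 10, TMM factors, quasi-likelihood test, all 9 libraries, 6 residual degrees of freedom, Benjamini-Hochberg over all genes, threshold 0.05), and recovered counts of 15743 genes in the same way. The procedure was tested on simulated data. Alternatives used DESeq2 1.42.0, limma 3.58.1 on log2(FPKM + 1) or log2(FPKM + 0.1), other scaling, other filters, only the groups compared, a replicate block, and each library left out in turn. Groups were taken as not overlapping from CPM of recovered counts with TMM factors. The labels do not say that libraries came from separate mice, so p-values measure only the spread among these libraries, which could be technical. Values in every library were to be given for Irf7, Irf9 and Stat2, the 2 genes of each role group with the highest mean FPKM, genes that passed the test, and the 2 highest and 2 lowest log2 fold changes of each comparison (22 genes). Other genes were named after their values were seen. Of the pathway lists values are given for some genes only, and 1 gene that the rule names there is not reported here. The members, gene lists and markers were chosen with earlier results of these data known. Promoter windows are RefSeq's, build GRCm38.p6.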

Additional observations from a re-analysis of the deposited data

How the results depend on the processing

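No gene of the 39 passed the test in any comparison under upper-quartile scaling, the fits of only the groups compared, recovered counts of all genes, or limma on FPKM. Both other filters on low counts kept 9877 and 9876 genes, so those fits nearly repeat the main one and show little. Of all genes in LILRB4 against WT, upper-quartile scaling called 136 higher and 128 lower, and only the groups compared 69 and 3. Recovered counts gave 128 and 9, and limma on log2(FPKM + 1) gave 67 and 9. In the other comparisons these fits called 0 of all genes. In LILRB4 against WT the number of members called higher was 1 with DESeq2 size factors, 3 with the DESeq2 test, 1 with recovered counts of the genes in the count table (an alternative chosen after seeing the data), and 0 to 4 when 1 library was left out, where the 4 came without LILRB4 replicate 2. Of all 9877 genes 187, 612, 178 and 541 were called higher in these 4 fits, in the same order. The median of the members in that comparison ran from -0.36 to -0.17 when 1 library was left out, and was -0.17 without WT replicate 2. The DESeq2 test called 2 members lower in SCG2 knockout against LILRB4 and 8 in SCG2 knockout against WT. The cause of these differences was not tested.

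Changes of sign were listed for a selection of 60 log2 fold changes of single genes, which does not cover every gene in every comparison. Of these 60, 7 changed sign under some alternative, so the 7 are not a count for the whole set. In LILRB4 against WT, leaving out 1 library gave Ifitm3 -0.57 to 0.16 (the latter without WT replicate 2) and Mx2 -0.56 to 0.16 (without WT replicate 1). In SCG2 knockout against LILRB4 it gave Mx2 -0.23 to 0.043 (without LILRB4 replicate 3) and Ifi44 -0.24 to 0.29 (without LILRB4 replicate 1), with 0.10 without SCG2 knockout replicate 1. In SCG2 knockout against WT it gave Ifih1 -0.18 to 0.028 (without SCG2 knockout replicate 3), with 0.022 without WT replicate 3, Mx2 -0.67 to 0.055 (without WT replicate 1) and Rsad2 -0.043 (without SCG2 knockout replicate 1) to 0.092. Rsad2 there was -0.035 with upper-quartile factors, -0.0063 with limma on log2(FPKM + 1), filtered or not, and -0.0071 with limma on log2(FPKM + 0.1). Signs also changed outside the 60, for small values, when recovered counts of all genes replaced deposited counts. Ddx58 in SCG2 knockout against WT went from 0.0012 to -0.016. In SCG2 knockout against LILRB4, Ifit2 went from 0.0016 to -0.035 and Xaf1 from 0.016 to -0.019. The cause of the changes in sign was not tested.

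Correlations between the deviations of same-numbered libraries were mixed (-0.54 to 0.66), so the numbers were not taken to pair the libraries. With the replicate block 0 members were called in every comparison, the medians of the members were -0.28, -0.26 and -0.47, and 1 gene in all was called higher in LILRB4 against WT.

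Counts were lowest for Ifi44, at a mean of 90.0 per library, where the SE of the log2 fold changes was 0.31 to 0.32. The SE was as large for genes with more counts, such as Oasl1 (1823 counts, SE 0.37 in LILRB4 against WT).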
